A study of Mus musculus with 16 samples.

Results

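The OB and MSC libraries of mice without miR-9-1 were compared with each other, 4 OB libraries against 4 MSC libraries, which are 8 of the 16 samples of the series. MSC is the submitters' label for sorted mesenchymal stem cells and OB their label for sorted osteoblasts. All 4 mice carry a deficiency of miR-9-1 made by CRISPR/Cas9 editing, so the controls of this contrast, the MSC libraries, lack the locus as well. The labels used here give no strain, age, sex or tissue site of the animals, no sort gate and no number of founder lines. The 8 libraries were taken by genotype and cell type, and each OB library was paired with the MSC library that carries the same animal number. The deficient mice are called E, F, G and H, and wherever 4 values are listed they stand in that order. Another 8 libraries, 4 MSC and 4 OB from wild-type mice A to D, served to ask whether the contrast differed between genotypes. Values are normalized counts, in which each gene's reads are divided by 1 size factor per library. A gene was tested when 4 or more of the 8 libraries reached 10.

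Mesenchymal stem cells of bone are stromal progenitors that give rise to osteoblasts, cartilage cells and fat cells. Osteoblasts lay down type I collagen, mineralize it with the help of alkaline phosphatase, and finally secrete osteocalcin. Both populations form part of the bone marrow niche, the surroundings that keep blood stem cells and developing lymphocytes alive through factors such as Cxcl12, Kitl and Il7. A microRNA is a short RNA that pairs through its seed with messenger RNAs and lowers their output. miR-9 is best known from the nervous system and is encoded at several loci, of which Mir9-1 is the one disrupted here.

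The seeds of the mature products of Mir9-1 are shown because loss of these sequences defines the animals. Capitals mark the seed, bases 2 to 8 counted from the 5′ end, and the sequences are those of RefSeq on GRCm38.p6 (mm10). The 5p arm lies at chr3:88215613-88215635 and the 3p arm at chr3:88215652-88215673, both on the plus strand of chromosome 3.
mmu-miR-9-5p: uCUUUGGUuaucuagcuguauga
mmu-miR-9-3p: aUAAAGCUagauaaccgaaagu
The same 2 mature sequences are annotated at Mir9-2 on chromosome 13 and at Mir9-3 on chromosome 7. The libraries were made from poly(A) RNA, so mature microRNAs were not measured. Reads assigned to Mir9-1 numbered 0 in each of the 4 deficient MSC libraries and 0, 3, 0 and 0 in the deficient OB libraries. A count of 0 allows up to 3 reads, equal to 3.52 to 4.38 normalized counts in these MSC libraries and 1.95 to 2.25 in the OB libraries, with counting error only. The wild-type MSC libraries also had 0 reads each and the wild-type OB libraries 7, 16, 0 and 4. The locus was thus too low to check the genotype labels.

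Depth ranged from 10148197 to 14246986 recovered reads in the deficient MSC libraries and from 15543693 to 18572199 in the OB libraries. The size factors ran from 0.684 to 0.852 and from 1.33 to 1.54. They did not follow depth alone: MSC library E had 14246986 reads and a factor of 0.852, OB library H 15543693 reads and 1.33. On this scale OB values are therefore lower relative to MSC values than they are as shares of reads. Rank correlations over tested genes were 0.939 to 0.973 among MSC libraries, 0.958 to 0.987 among OB libraries and 0.75 to 0.871 between the sorts. Xist, the transcript of the inactive X chromosome, and the Y-linked gene Ddx3y did not give the same picture of a mouse in its 2 libraries. Xist stood at 392, 327, 12362 and 14158 in the MSC libraries and Ddx3y at 3355, 1848, 47.1 and 46.8, so mice E and F read as Y-bearing and mice G and H as not. In the OB libraries Xist stood at 3719.5, 3974, 8053 and 7429.8 and Ddx3y at 1939, 1185, 716 and 817, so each OB library held both transcripts. The libraries that carry the same animal number thus did not match in these genes, and whether each OB library holds RNA of 1 mouse was not tested. The p-values below assume separate animals, and where libraries share RNA they measure only the spread between these samples. The deviations of the 2 libraries of a mouse from their group means correlated with r = 0.206, 0.320, 0.0587 and 0.131. The pairing rests on the animal number in the labels, so a mouse below means the 2 libraries that carry 1 number.

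**Figure D1:**
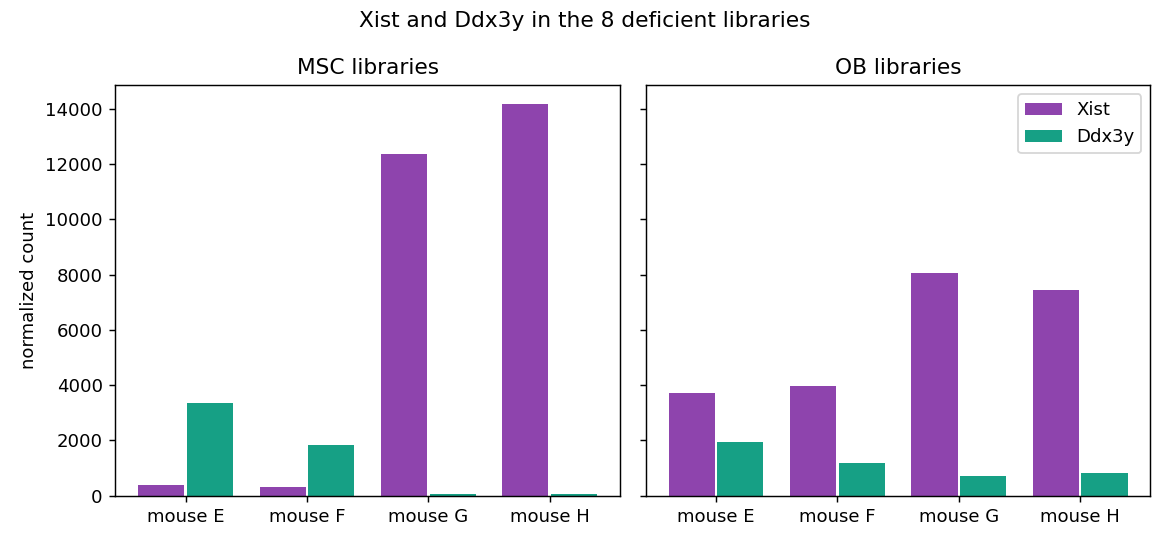
Normalized counts of Xist (purple) and Ddx3y (green) in each of the 8 deficient libraries, 1 pair of bars per mouse, MSC on the left and OB on the right. Among MSC libraries E and F are low in Xist and G and H are low in Ddx3y, while every OB library holds both, with Ddx3y from 716 to 1939.

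The 2 sorts differed across most of the genome. Of 14692 genes tested, 8978 passed at a limma adjusted p under 0.05, which is 61.1%. OB libraries were higher for 4312 genes (29.3% of those tested) and lower for 4666 (31.8%). Of the 8978, 8733 had the same direction in all 4 mice. The 4 OB values lay wholly above or wholly below the 4 MSC values for 8106 tested genes, or 55.2%. These shares are the background against which the counts within gene lists are read. With an absolute log2 difference of at least 1 as a second condition, 5581 genes remained, 2371 higher and 3210 lower. At the far end the sides were less even, since 482 passing genes were lower by 3 or more on the log2 scale and 251 were higher by as much. Differences are on the scale of log2(normalized count + 1), OB minus MSC, which understates the change of low genes. In bulk libraries fewer cells of a type and less RNA per cell cannot be told apart.

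**Figure D2:**
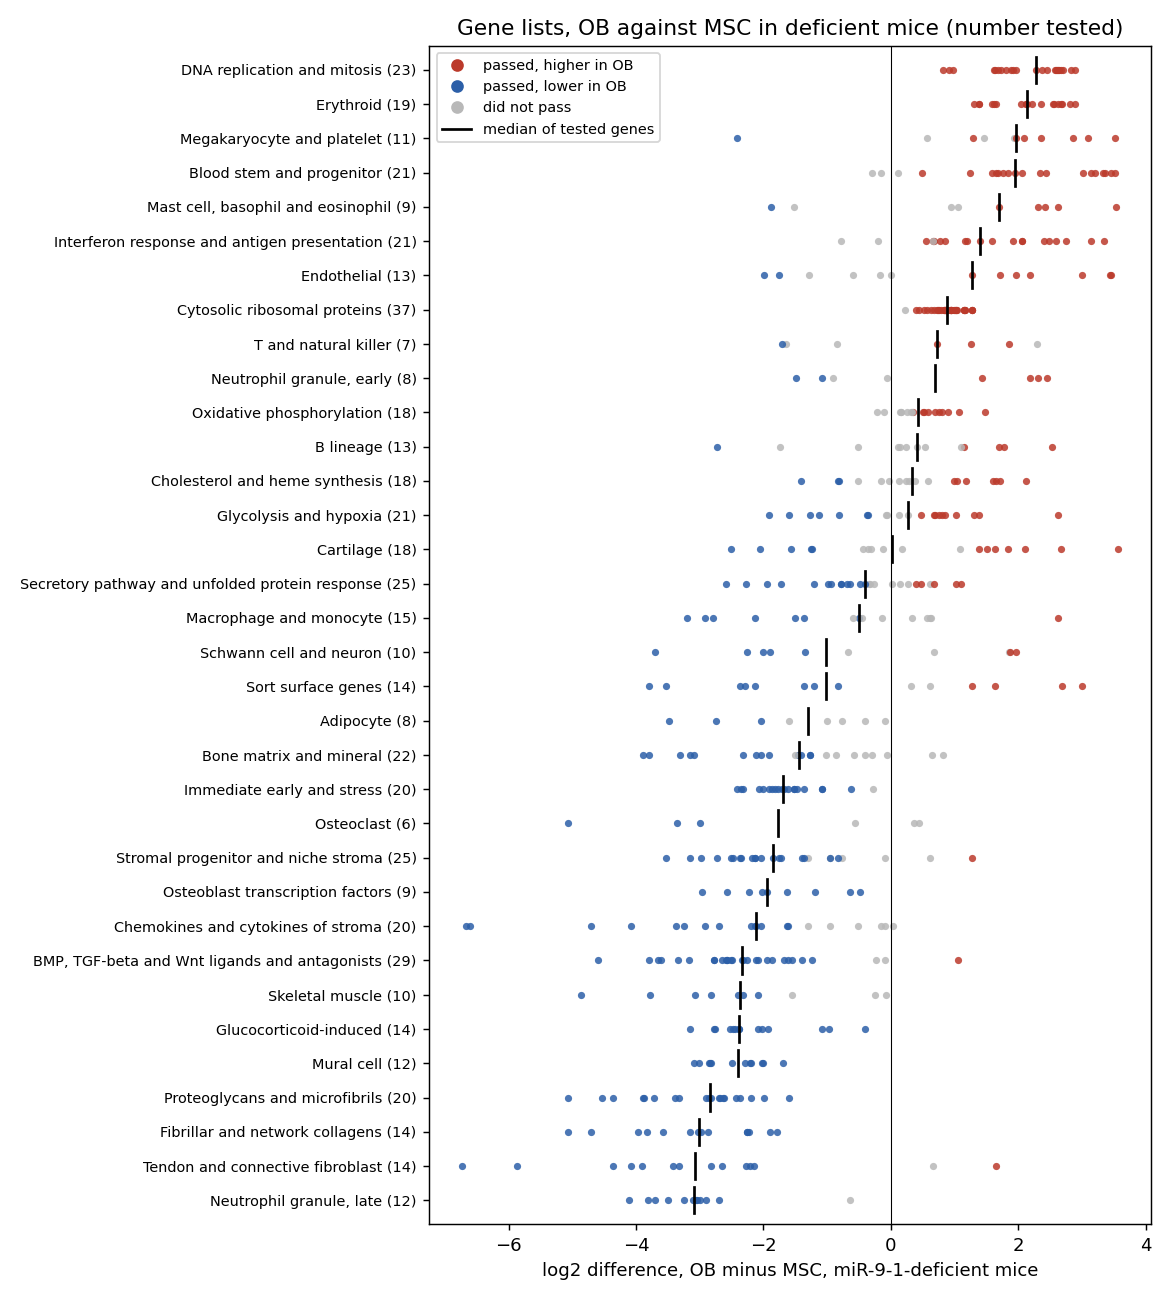
Each point is 1 tested gene of a list, placed by its log2 difference, OB minus MSC, in the deficient mice. Red points passed higher in OB, blue points passed lower and grey points did not pass; the black bar is the median over the list's tested genes and the number tested is in brackets. Collagen, proteoglycan and late neutrophil lists lie at the bottom with medians near -3, and replication and erythroid lists at the top with medians above 2.

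The 15 genes that differed most on the MSC side were of several kinds, and 7 of them (Tnxb, Dpt, Clec3b, Col6a6, Ccl11, Cxcl13 and Il33) encode matrix proteins or secreted signals, a grouping made after the genes were known. Inmt, a methyltransferase of small amines, had 2411, 398, 2193 and 2148 normalized counts in the MSC libraries and 5.88, 7.16, 0.731 and 2.25 in the OB libraries. Its log2 difference was -8.44 (SE 0.67, limma adjusted p 3.06e-05), and the lowest MSC value, in mouse F, was still far above every OB value. Tnxb, the matrix protein tenascin X, fell from 5782, 17144, 10924 and 8234 to 116, 249, 163 and 54.1, a log2 difference of -6.25 (SE 0.23, limma adjusted p 3.85e-06). Dermatopontin (Dpt), which binds decorin, went from 1583, 1977, 1924 and 1293 to 11.8, 34.5, 22.7 and 15, with a log2 difference of -6.36 (SE 0.24, limma adjusted p 3.85e-06). Clec3b, which encodes the plasminogen-binding tetranectin, differed by -6.73 (SE 0.29, limma adjusted p 5.12e-06). Among secreted signals Ccl11, the eosinophil attractant eotaxin, differed by -6.60, Cxcl13, an attractant of B cells, by -6.67 and the alarmin Il33 by -5.91. Cxcl13 was at 0 in 3 OB libraries, so its fitted value is no bound. Col6a6, a chain of type VI collagen, Ifi205, an interferon-activated gene, and Ly6c1 differed by -6.72, -6.40 and -5.87. The sodium channel Scn7a, periplakin (Ppl), the splicing factor Nova1, AI607873 and the cytochrome P450 gene Cyp2f2 completed the 15 largest, between -5.81 and -5.28. All 15 were chosen to have groups that do not overlap.

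Bone matrix genes did not mark the OB libraries. Of 24 bone matrix and mineral genes, 22 were tested, 0 passed higher in OB and 13 passed lower, against 29.3% and 31.8% of all genes. The median over the tested members was -1.44, against -0.023 over all tested genes. Col1a1, the main chain of the collagen of bone, had 202910.0, 402536, 399772 and 150990.0 in the MSC libraries and 25026, 50379, 48660.3 and 8330.2 in the OB libraries. That is a log2 difference of -3.31 (SE 0.31, limma adjusted p 5.72e-05), or 9.91-fold lower in OB, and the lowest MSC library was above the highest OB library. Bone sialoprotein (Ibsp), which seeds mineral crystals, went from 30971, 25478, 47688 and 17681 to 4218, 4889, 3348 and 1551, a log2 difference of -3.15 (SE 0.23, limma adjusted p 2.45e-05). Tnn, or tenascin N, differed by -3.89 (SE 0.30, limma adjusted p 2.71e-05) and podoplanin (Pdpn), a membrane protein of early osteocytes, by -3.80 (SE 0.39, limma adjusted p 9.41e-05). Alpl, the alkaline phosphatase of mineralization, had 2478, 9495, 4897 and 2515 against 1222, 2547, 1129 and 283. The groups overlapped through mouse F, whose OB value exceeded 2 of the MSC values, yet OB was lower within each of the 4 mice and the log2 difference was -2.04 (SE 0.28, limma adjusted p 4.15e-04). Phospho1, a phosphatase that works in matrix vesicles, had 372, 348, 229 and 247 against 110.2, 159.6, 131 and 90.9, a log2 difference of -1.27 (SE 0.22, limma adjusted p 0.00149).

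The late osteoblast gene Bglap, which encodes osteocalcin, was low everywhere. Its values were 10.6, 46.4, 9.15 and 5.84 in the MSC libraries and 22, 74.2, 122 and 0.752 in the OB libraries, a log2 difference of 0.82 (SE 0.85, limma adjusted p 0.423) that did not pass. Bglap2, Dmp1, Phex, Ifitm5 and Smpd3, further genes of late osteoblasts and osteocytes, did not pass either. The cell type label of the OB libraries was therefore not borne out by higher levels of its defining genes. Ordered by role, transcription factors gave the same direction. Of 10 osteoblast factors 9 were tested and 9 were lower in OB, with a median log2 difference of -1.95. Sp7 (osterix), needed for osteoblast formation, had 251, 814, 688 and 311 against 210.1, 255, 135 and 64.6, a difference of -1.63 (SE 0.33, limma adjusted p 0.00325). Runx2, the factor that commits cells to bone, moved least, from 1664, 2585, 2720.2 and 1816 to 1356, 2060.1, 1399 and 1401, a difference of -0.49 (SE 0.14, limma adjusted p 0.0161) with overlapping groups, and did not pass without mouse G, without the replicate block or under quantile normalization (limma adjusted p 0.103, 0.0577 and 0.0833). Twist1, a mesenchymal factor that restrains Runx2, differed by -2.96, and the homeobox factors Dlx3, Dlx5 and Dlx6 by -1.95, -2.22 and -2.03.

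Genes of the general connective tissue matrix were lower in OB without exception among those tested. All 14 fibrillar and network collagens of the list passed lower, with a median of -3.003, and their 2 groups did not overlap for any of the 14. Col5a1 had 21180.3, 48000.2, 40233 and 19203 against 2548, 5260.0, 1923 and 766, and Col5a2, its partner in type V collagen, differed by -3.58 (SE 0.24, limma adjusted p 1.79e-05). Col14a1, a collagen on fibril surfaces, differed by -5.07 and the basement membrane collagen Col15a1 by -3.97. All 20 proteoglycans and microfibril proteins were lower too, with a median of -2.84. Decorin (Dcn), a proteoglycan that coats collagen fibrils, had 107404, 145350.0, 146230.0 and 107893 against 8424, 14421, 11272 and 3711, a log2 difference of -3.89 (SE 0.27, limma adjusted p 1.93e-05). Fibronectin (Fn1) differed by -3.32, fibromodulin (Fmod) by -2.82 and fibulin 2 (Fbln2) by -5.06. The collagen list made up 2.4 to 3.84% of the reads of a deficient MSC library and 0.212 to 0.72% of an OB library.

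Stromal progenitor genes were mostly lower in OB, while the factors that feed blood cells were not uniformly so. Of 25 genes of the stromal progenitor and niche list, 25 were tested, 19 passed lower and 1 passed higher, with a median of -1.85. Pdgfra, a growth factor receptor of mesenchymal progenitors, had 10813, 7142, 8967 and 8982 in the MSC libraries and 1314, 982, 600.2 and 452 in the OB libraries, a difference of -3.53 (SE 0.23, limma adjusted p 1.64e-05). Foxc1 and Prrx2, transcription factors of stroma, differed by -2.35 and -3.15, and Nt5e, the ectonucleotidase CD73, by -2.36. Igf1, an insulin-like growth factor, went from 859, 2161, 1025 and 1549 to 342, 643, 138 and 98.5, a difference of -2.48 (SE 0.38, limma adjusted p 7.01e-04). Ly6a (Sca-1), a surface antigen of stem and progenitor cells, had 467, 955, 425 and 422 against 245, 311, 308 and 341, a difference of -0.83 (SE 0.23, limma adjusted p 0.0126). The member that was higher, Eng (endoglin), is a coreceptor that endothelial and stromal cells both carry, and it differed by 1.28 (SE 0.14, limma adjusted p 1.10e-04).

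The niche factors split by mouse. Cxcl12, the chemokine that holds blood stem cells and B-cell precursors in marrow, had 8012, 23991, 15933 and 6556 in the MSC libraries and 10219, 28405, 4614 and 1069.5 in the OB libraries. It was higher in OB within mice E and F and lower within G and H, and the log2 difference of -0.95 (SE 0.46, limma adjusted p 0.107) did not pass. Kitl, the ligand of the receptor Kit, had 1441, 1090.3, 1222 and 1594 against 1394, 1236, 310.0 and 154, with its drop in mice G and H, and a difference of -1.30 (SE 0.52, limma adjusted p 0.058). Il7, a growth factor of B- and T-cell precursors, had 34, 27.1, 47.1 and 16.1 against 21.3, 69.7, 18.3 and 19.5, a difference of -0.093 (SE 0.54, limma adjusted p 0.895), with OB higher within 2 mice and lower within the other 2. Lepr, a marker of perivascular stroma, had 6185, 2965, 3593 and 3633 against 2531, 2290.0, 563 and 195, a difference of -2.14 (SE 0.52, limma adjusted p 0.00735), and the OB values of mice G and H were the lowest. Fitted on mice E and F alone, the differences were 0.30 for Cxcl12, 0.066 for Kitl and -0.83 for Lepr. On mice G and H alone they were -2.20, -2.67 and -3.44. They are descriptions, since the mice were split after these values were seen. These are also the 2 pairs that Xist and Ddx3y separate among the MSC libraries. The part of that split in the result was not tested. Each of these fits holds 2 mice.

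**Figure D3:**
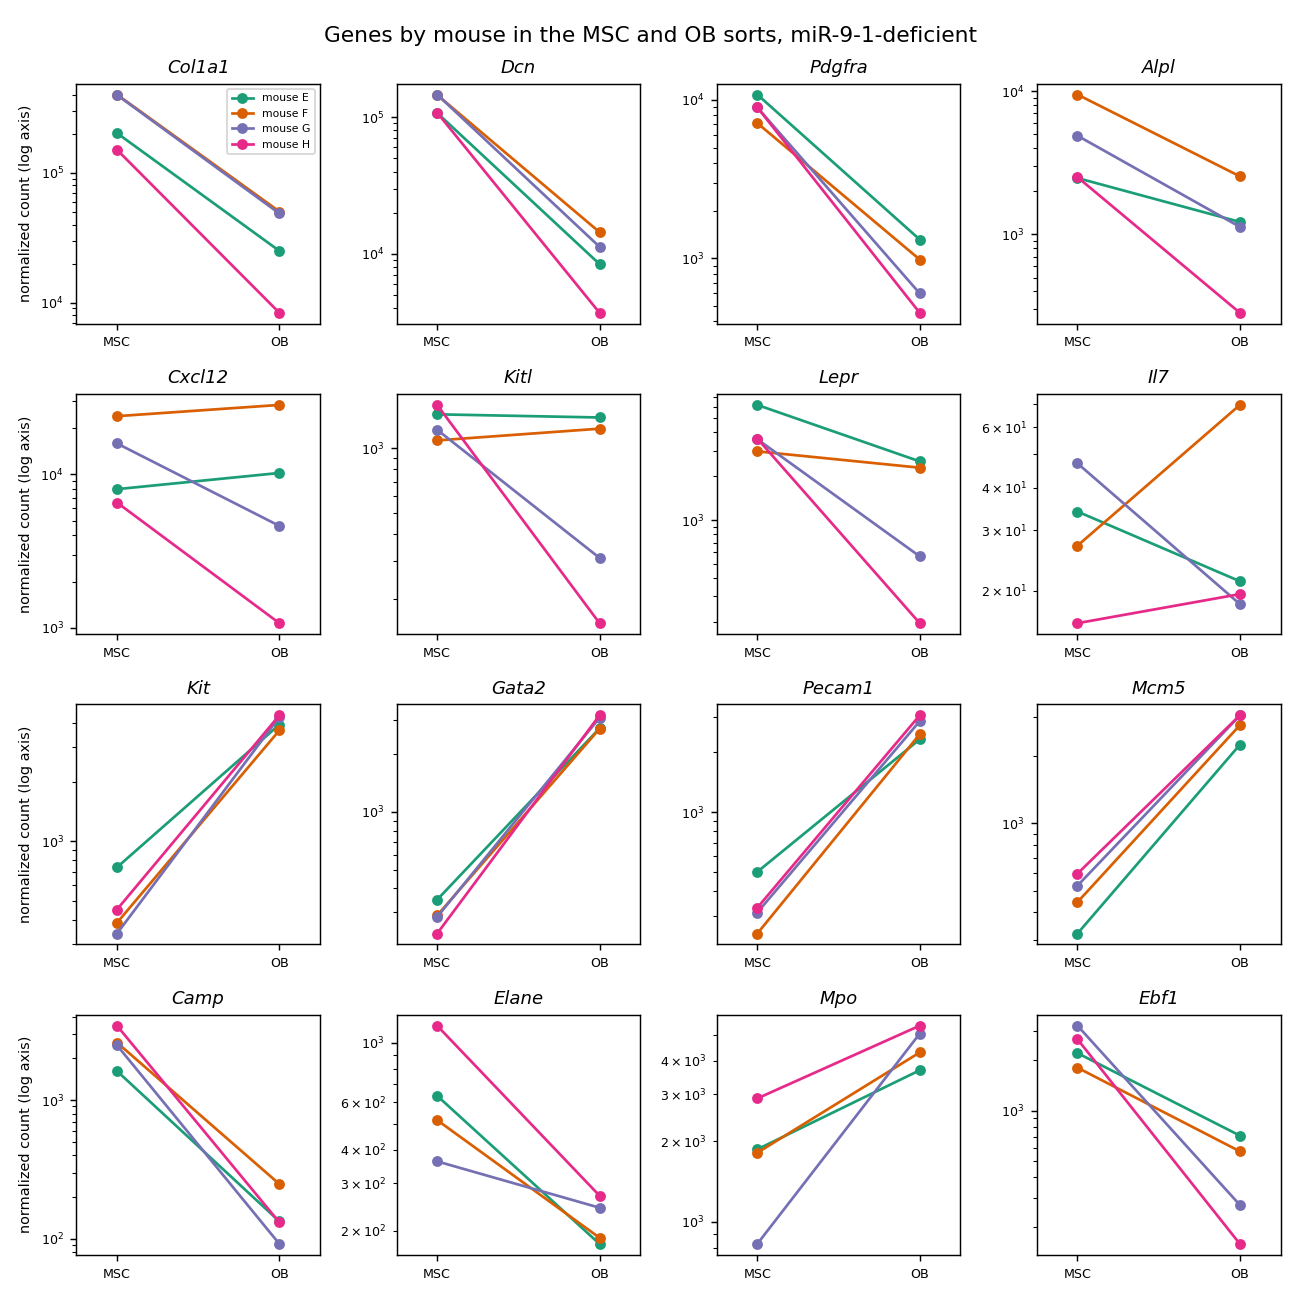
Normalized counts on a log axis in the MSC and OB library of each deficient mouse, 1 panel per gene and 1 coloured line per mouse, each panel with its own scale. Lines fall in all 4 mice for Col1a1, Dcn, Pdgfra, Alpl, Lepr, Camp, Elane and Ebf1, rise in all 4 for Kit, Gata2, Pecam1, Mcm5 and Mpo, and cross for Cxcl12, Kitl and Il7.

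Signals that stroma sends to neighbouring cells were lower in OB. Among 31 ligands and antagonists of the BMP, TGF-beta and Wnt pathways 29 were tested, of which 26 passed lower and 1 higher, with a median of -2.33. The Wnt antagonist relative Dkk3 had 7274, 10521, 9425 and 6730.3 against 894, 1443, 632 and 269, a difference of -3.61 (SE 0.27, limma adjusted p 2.54e-05). Ltbp2, a latent TGF-beta binding protein of microfibrils, differed by -3.33, Tgfb2 by -2.64 and the procollagen-cleaving protease Bmp1 by -1.67. Tgfb1 was the exception, with 1886, 3777, 3319 and 1957 in the MSC libraries and 4704, 5392, 5859.9 and 5851 in the OB libraries, a difference of 1.06 (SE 0.18, limma adjusted p 0.00123). Of 22 chemokines and cytokines of stroma 20 were tested and 14 passed lower, none higher, with a median of -2.12. Cxcl1, a neutrophil attractant, had 1774, 2568, 2269 and 1689 against 198, 263, 80.4 and 48.9, a difference of -4.08 (SE 0.33, limma adjusted p 3.17e-05). Il6 differed by -3.37 and the monocyte attractant Ccl2 by -2.14.

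Cartilage genes ran both ways. Of the 19 listed, 18 were tested, 7 passed higher in OB and 5 lower, with a median of 0.023. Of all tested genes 29.3% passed higher and 31.8% lower, so the count of lower members is near that share. Groups did not overlap for 8 of the 18, against 55.2% of all tested genes. The counts were 3 higher and 5 lower without mouse G, and 7 higher and 9 lower without mouse E. Among the higher members, 4 are given here. Col9a1, a chain of the type IX collagen on cartilage fibrils, had 115, 369.9, 576 and 595 against 4488, 1267, 3395 and 1242, a difference of 2.67 (SE 0.57, limma adjusted p 0.00395) with no overlap. Matn3, a cartilage linker protein, had 43.4, 104, 463 and 343 against 1210.0, 554, 741 and 506, a difference of 2.10 (SE 0.61, limma adjusted p 0.0172), and Col9a2 and Matn1 differed by 1.39 and 3.56. Matn1 was at 0 in MSC libraries E, F and G and at 17.5 in H, so its fitted value is no bound. The OB library of mouse E was the highest for Col9a1, Col9a2 and Matn3. On the lower side stood the matrix protein Comp at -2.50, the transcription factor Sox5 at -2.06, the parathyroid hormone receptor Pth1r at -1.57 and the fibrillar collagen Col11a1 at -1.26. Cytl1, a cytokine-like protein first found in CD34+ cells and also made by chondrocytes, had 3486, 10346, 10461 and 20649.8 against 10080.0, 7326, 6440.3 and 6937, a difference of -0.31 (SE 0.42, limma adjusted p 0.541). Within mice the list's median difference was 1.70, -0.37, -0.24 and -0.72, so only mouse E was above 0. Without mouse F Matn3 did not pass (limma adjusted p 0.0597), nor did Matn1 without mouse G (0.0549).

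Markers of other connective cells were lower in OB. Of 14 tendon and fibroblast genes 12 passed lower and 1, the progenitor antigen Cd34, passed higher, from 1216, 1724, 1545 and 1127 to 3720.2, 4133, 4572 and 4963 (log2 difference 1.64). The actin-severing protein Gsn differed by -4.07, the guidance cue Sema3c by -3.33 and the fibroblast antigen Cd248 by -3.91. All 12 mural cell genes, which mark pericytes and smooth muscle, passed lower, with a median of -2.40, and 7 did so without mouse G. Rgs5, a pericyte gene, had 883, 429, 1159 and 1761 against 459.9, 59.9, 84.8 and 75.2, a difference of -3.01 (SE 0.49, limma adjusted p 9.79e-04), and the groups overlapped because the OB library of mouse E exceeded the MSC library of mouse F. The proteoglycan Cspg4, the channel subunit Abcc9 and the filament protein desmin (Des) differed by -2.02, -2.86 and -2.82. For the mural list the median difference within mice was -0.49, -1.48, -3.55 and -4.46, an uneven series in which mouse E moved least.

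Muscle genes that passed were lower in OB, and most fat genes did not pass. Of 14 skeletal muscle genes 10 were tested and 7 passed lower in OB, a count that fell to 3 without mouse G and to 4 without mouse H. Acta1, the actin of skeletal muscle, had 44.6, 73.5, 748 and 3446 in the MSC libraries and 33.8, 11.7, 2.19 and 7.52 in the OB libraries, so its difference of -4.87 (SE 1.26, limma adjusted p 0.0101) came mainly from mice G and H, and it did not pass without G (difference -3.87, limma adjusted p 0.0508). Tnnt3 and Actn3, parts of the fast muscle sarcomere, differed by -2.33 and -2.08. The summed level of the muscle list ran from 686 to 7611 in MSC libraries and from 192 to 495 in OB libraries. Of 12 adipocyte genes 8 were tested and 3 passed lower, namely Plin4 (-3.48), Fabp4 (-2.75) and Lpl (-2.04). That count is near the 31.8% of all tested genes that passed lower. Groups did not overlap for 1 of the 8, against 55.2% of all tested genes. The adipocyte list summed to 5170.4 to 8731 in MSC libraries and to 889.9 to 5216 in OB libraries, so the OB libraries varied more. Plin4 had 182, 9.12, 19.7 and 24.8 and Fabp4 261, 41.7, 59.2 and 52.6 in the OB libraries, with mouse E the highest for both. Plin4 coats lipid droplets, Fabp4 carries fatty acids and Lpl frees them from lipoproteins.

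Genes of blood stem and progenitor cells were higher in OB. Of 21 such genes 21 were tested, 18 passed higher and 0 lower, with a median of 1.95, and 18 had groups that did not overlap. Kit, the receptor for Kitl on blood progenitors and mast cells, had 737, 385, 339.9 and 450.1 in the MSC libraries and 3914, 3658, 4277 and 4362 in the OB libraries. Its log2 difference was 3.14 (SE 0.19, limma adjusted p 1.19e-05), or 8.84-fold higher in OB. Gata2, a factor that maintains blood stem cells, went from 349, 289, 284 and 232 to 2728, 2715, 3098 and 3191, a difference of 3.35 (SE 0.15, limma adjusted p 5.12e-06). Myb, needed for definitive blood formation, had 269, 281, 246 and 446 against 2717, 2909, 3271 and 3356, and Tal1 and Lmo2, which act in 1 complex, differed by 3.02 (SE 0.13, limma adjusted p 5.12e-06) and 3.20 (SE 0.15, limma adjusted p 5.12e-06). The OB values of these genes lay close together, and the MSC values were low but not at 0. Hoxa9, Runx1 and Sox4 were the members that did not pass. Ptprc, the pan-leukocyte antigen CD45, had 784, 708, 929 and 1257 against 2447, 2579, 2885 and 3315, a difference of 1.63 (SE 0.12, limma adjusted p 2.29e-05).

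Red cell genes were higher in OB for all 19 tested of 20 listed, with a median of 2.14. Car2, the carbonic anhydrase of red cells, had 497, 509, 1022 and 1769.5 against 5066, 5573, 6631 and 5862, a difference of 2.81 (SE 0.26, limma adjusted p 5.83e-05). Slc4a1, the anion exchanger band 3, differed by 2.13. Hba-a1 and Hba-a2 carried identical values in the files and count as 1 measurement. Within mice the median difference was 2.76, 2.66, 2.004 and 1.12, the smallest in mouse H. Of 13 megakaryocyte genes 11 were tested, 7 passed higher and 1 lower. The list's median difference within mice was 2.68, 2.91, -0.15 and 2.78, so mouse G was below 0. Nfe2, a factor of platelet formation, had 505, 505, 578 and 688 against 3626, 3841, 4241 and 4835, a difference of 2.86 (SE 0.11, limma adjusted p 3.85e-06). Itga2b, the platelet integrin, had 338, 317, 1507 and 443 against 2244, 2396, 2958 and 3049, with MSC library G above the others. Gp5 differed by 3.10, while Gp1bb, which overlaps a neighbouring gene, went the other way, at -2.42.

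Late neutrophil granule genes were lower in OB, while the early list ran both ways. The proteins of the first granules are made by early precursors and those of later granules by nearly mature cells. Of the 8 genes of the early list 4 passed higher in OB and 2 lower, while Ctsg and Cebpe did not pass. Mpo, myeloperoxidase, had 1869, 1815, 827 and 2898 in the MSC libraries and 3693, 4305, 5063 and 5422 in the OB libraries, a difference of 1.44 (SE 0.26, limma adjusted p 0.00181) with no overlap. Prtn3, Ms4a3 and Srgn differed by 2.45, 2.30 and 2.19. Elane, the elastase stored with Mpo, had 635, 515, 362 and 1157 against 179, 188, 243 and 269.8, a difference of -1.49 (SE 0.25, limma adjusted p 0.00108). Hp, whose granule stage was not examined here, differed by -1.08. Its call was lost without mouse G or mouse H (limma adjusted p 0.135 and 0.0872). Of the 12 late genes tested, 11 passed lower in OB and 0 higher, with a median of -3.08. Camp, the precursor of a cationic peptide, had 1625, 2608, 2495 and 3453 against 133, 248, 91.4 and 131, a difference of -4.12 (SE 0.25, limma adjusted p 1.20e-05), or 17.3-fold lower. S100a8, Lcn2 and Mmp9 differed by -3.11, -3.06 and -2.99. The late list summed to 37901 to 78134 normalized counts in MSC libraries and 4037 to 7815 in OB libraries, ranges that do not overlap. Its part in the other differences was not tested.

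Other blood lineages were mixed. Their counts stand against 29.3% of all tested genes that passed higher and 31.8% that passed lower. Of 15 macrophage and monocyte genes tested, 7 passed lower and 1 higher. Cd14, a receptor for bacterial lipopolysaccharide, had 1751, 934, 725 and 1223 against 222, 221, 106 and 120.3, a difference of -2.79 (SE 0.21, limma adjusted p 2.64e-05), while Hmox1 and Ly6c2 differed by -2.14 and -3.20. Laptm5, a lysosomal protein of blood cells in general, was higher by 2.62. The complement genes C1qa, C1qb and C1qc, typical of tissue macrophages, did not pass. Of 6 osteoclast genes tested, Ctsk, Mmp9 and Atp6v0d2 passed lower, at -3.36, -2.99 and -5.07. Among 13 B-lineage genes tested, 4 passed higher (2 without mouse E), Cd37 (1.70), Cd79b (1.78), Dntt (2.53) and Ms4a1 (1.15). That count is near the share over all tested genes, and 8 of the 13 did not pass. The defining gene Pax5 did not pass, and the call for Ms4a1 was lost without mouse E, G or H and that for Dntt without mouse E (limma adjusted p 0.0525). Ebf1, which acts in B cells and in stroma, was lower, from 2214, 1811, 3231 and 2681 to 709.7, 571, 273 and 159 (difference -2.73). Nkg7, Lck and Cd247 of the T and natural killer list were higher by 1.85, 1.26 and 0.72, and Il2rb was lower, at -1.71. Il2rb did not pass without mouse F, G or H, nor Cd247 without mouse G (limma adjusted p 0.0558). In the mast cell and basophil list 9 of 17 genes were tested, and 5 passed higher (4 without mouse F, G or H) and 1 lower. Cpa3, Fcer1a, Ms4a2 and Mcpt8 were higher by 2.62, 3.54, 2.41 and 2.32, and Hdc, which makes histamine, was lower, at -1.88.

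Endothelial genes did not move as 1 group. Of 13 tested, 7 passed higher in OB and 2 lower, against 29.3% and 31.8% of all tested genes. Pecam1 (CD31), carried by endothelium and many blood cells, had 499, 244, 311 and 329 against 2327, 2468, 2873 and 3076, a difference of 2.99 (SE 0.19, limma adjusted p 1.45e-05). Tie1 and Tek, receptors found on endothelium and on blood stem cells, differed by 3.46 (SE 0.15, limma adjusted p 5.12e-06) and 1.72 (SE 0.19, limma adjusted p 1.17e-04). Cdh5, the cadherin that defines endothelial junctions, had 199.5, 23.2, 92.8 and 215 against 46.3, 13.7, 12.4 and 42.1, a difference of -1.98 (SE 0.43, limma adjusted p 0.00416), and the receptor Flt1 was lower, at -1.76, a call lost without mouse E, G or H (highest limma adjusted p 0.0871). Kdr, Emcn, Stab2 and Plvap did not pass. Among 14 surface genes often used to sort bone cells, 4 passed higher and 8 lower. The higher ones included Ptprc, Pecam1 and Eng, and the lower ones included Pdgfra, Pdpn, Nt5e and Cd200 (difference -2.30).

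The Schwann cell and neuron list held 10 tested genes, 2 higher and 5 lower in OB (3 lower without mouse H). The shares over all tested genes were 29.3% and 31.8%. The myelin protein gene Mbp, which also gives a transcript in blood cells, was higher by 1.87 and Gfap by 1.96. Gfap stood at 2.58 to 2.92 in MSC libraries F, G and H, within their 3-read limit of 3.87 to 4.38, so its fitted value is no bound. Ncam1, Ngfr, S100b and Tubb3 were lower, at -2.25, -3.70, -1.35 and -1.90. Gfap did not pass without mouse F, G or H, nor Tubb3 without mouse H (limma adjusted p 0.0596).

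The 15 largest rises in OB were in genes with few reads in MSC libraries. Fam110c had 0, 0, 7.84 and 17.5 in the MSC libraries and 152, 174, 205 and 274 in the OB libraries, a difference of 5.78 (SE 0.70, limma adjusted p 2.08e-04). Nkx2-3, a homeobox factor known from spleen and gut, had 11.7, 41.2, 1.31 and 1.46 against 247, 203, 224 and 249, a difference of 4.96 (SE 0.73, limma adjusted p 5.69e-04). Pglyrp2, an amidase that cleaves bacterial cell wall, had 48.1, 10.3, 41.8 and 38 against 544, 662, 727 and 694, a difference of 4.40 (SE 0.38, limma adjusted p 4.15e-05). Ifi44 and Gbp2b, both induced by interferon, differed by 5.24 and 4.13. Tnip3, a binding partner of the NF-kappa-B inhibitor A20, and the lipoprotein-related Apol11b differed by 5.43 and 4.90. Lrrn4, I730030J21Rik, Omg, B3gnt7, the adhesion receptor Gpr128, the guidance receptor Robo3, Sapcd2 and A530088E08Rik lay between 3.98 and 5.42. Where MSC libraries stood at 0 or within the 3-read limit, as for Fam110c in mice E and F, the fitted value is no bound.

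Genes of DNA replication and mitosis were higher in OB without exception. All 23 passed and had no overlap, with a median of 2.28, and the median within mice was 2.38, 2.17, 2.44 and 2.15. Mcm5, a subunit of the helicase that opens replication origins, had 322, 445, 527 and 596 in the MSC libraries and 2252, 2753, 3042 and 3049 in the OB libraries, a difference of 2.58 (SE 0.12, limma adjusted p 5.14e-06). Its partners Mcm2 and Mcm3 differed by 2.63 and 2.45 and topoisomerase Top2a by 2.61. The list took up 0.054 to 0.0916% of reads in MSC and 0.31 to 0.439% in OB libraries. Of 37 cytosolic ribosomal protein genes, 36 passed higher, with a smaller median of 0.89 (1.38 under quantile normalization). Their share of reads was 0.913 to 1.17% in MSC and 2.40 to 3.02% in OB libraries. Rpsa had 4853, 4138, 4267 and 4924 against 9809, 10482, 11218 and 12326, a difference of 1.27 (SE 0.13, limma adjusted p 8.46e-05), and Rps24, Rpl35 and Rps6 differed by 1.27, 1.17 and 1.15.

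Interferon and antigen presentation genes were higher as well, 18 of 21 tested with 0 lower and a median of 1.39. Psmb9, a subunit of the immunoproteasome that cuts peptides for display, had 57.5, 64.4, 57.5 and 52.6 against 466, 577, 656 and 709.5, a difference of 3.34 (SE 0.21, limma adjusted p 1.44e-05). Psmb8 differed by 2.75, the peptide transporter Tap1 by 2.05 and the class I molecule H2-K1 by 2.05. Irf9, Ifit3 and Ciita did not pass.

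Because the members of these lists moved together, the 250 bases before their annotated starts were searched on both strands for short motifs known from each pathway. The letters TTTNGCGC, a core bound by E2F factors, occurred in 3 of 19 replication genes with a RefSeq window (Cdk1, Mcm5 and Mcm6) and in 1.31% of all 27025 genes with one (2.28% of the 10837 that were tested). GAAANNGAA, the core of the interferon-stimulated element, occurred in 5 of 15 interferon genes (Isg15, Ifit1, Ifit3, Bst2 and B2m) and in 8.18% of all (7.44% of those tested). AGATAA, the core for factors of the GATA family, occurred in 4 of 14 erythroid genes (Epor, Alas2, Hbb-bs and Trim10) and in 11.4% of all (7.36% of those tested). Shown are 120-base stretches of RefSeq GRCm38.p6, on each gene's own strand, with the motif in capitals. Mcm5 lies at chr8:75109300-75109419 (plus strand) and holds overlapping matches on both strands, and Cdk1, the kinase that starts mitosis, at chr10:69352980-69353099 (minus). B2m, the light chain of class I molecules, lies at chr2:122147492-122147611 (plus) and Isg15, a ubiquitin-like protein, at chr4:156200833-156200952 (minus) with 3 matches that overlap or adjoin. Hbb-bs, a beta-globin, lies at chr7:103828059-103828178 (minus) and Alas2, the first enzyme of red cell heme synthesis, at chrX:150547274-150547393 (plus), where the match is on the other strand.
Mcm5: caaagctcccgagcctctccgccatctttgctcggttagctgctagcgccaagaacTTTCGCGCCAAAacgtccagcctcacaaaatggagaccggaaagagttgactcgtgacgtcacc
Cdk1: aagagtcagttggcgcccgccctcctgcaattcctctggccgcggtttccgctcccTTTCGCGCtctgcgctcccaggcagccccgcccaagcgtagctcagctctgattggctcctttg
B2m: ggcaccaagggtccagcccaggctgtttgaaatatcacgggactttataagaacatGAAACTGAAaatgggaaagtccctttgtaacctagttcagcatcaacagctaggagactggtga
Isg15: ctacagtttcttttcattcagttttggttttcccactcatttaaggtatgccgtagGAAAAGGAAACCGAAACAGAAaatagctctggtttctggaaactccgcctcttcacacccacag
Hbb-bs: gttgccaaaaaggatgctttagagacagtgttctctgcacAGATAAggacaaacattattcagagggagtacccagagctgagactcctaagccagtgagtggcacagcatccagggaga
Alas2: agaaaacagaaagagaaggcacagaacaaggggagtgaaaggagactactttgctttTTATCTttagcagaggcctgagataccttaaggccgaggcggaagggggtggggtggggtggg
Cdk1 differed by 2.90 on the log2 scale, B2m by 1.19, Isg15 by 1.91, Hbb-bs by 1.62 and Alas2 by 2.14, each higher in OB and past the threshold. A match says only that these letters stand there.

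Genes that respond fast to handling or stress were lower in OB. Of 20 immediate early and stress genes 19 passed lower and 0 higher, with a median of -1.69, while under quantile normalization 13 passed lower and 1 higher, with a median of -0.85. Klf4 had 25649, 30192, 26526 and 20255 in the MSC libraries and 6099, 6356, 4548 and 2924 in the OB libraries, a difference of -2.41 (SE 0.16, limma adjusted p 1.70e-05). The phosphatase Dusp1, Myc and the heat shock gene Hspa1b differed by -2.35, -1.81 and -2.07. TGACGTCA, the cyclic AMP response element, occurred before 1 of 17 of these genes (Dusp1), against 1.77% of all and 2.87% of those tested. All 14 glucocorticoid-induced genes passed lower, with a median of -2.38. The metal-binding Mt2 had 28461, 12922, 14843 and 13784 against 4832, 1709, 1508 and 967, a difference of -3.15 (SE 0.20, limma adjusted p 1.37e-05), and Mt1, the kinase Sgk1 and Serpina3n differed by -2.77, -2.48 and -2.77. Mouse E was the highest of both sorts for Mt1, Mt2 and Sgk1.

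Secretory and metabolic genes ran both ways, beside 29.3% of all tested genes that passed higher and 31.8% that passed lower. Of 25 secretory pathway genes 13 passed lower and 5 higher, with a median of -0.40. Their shares of reads overlapped, at 0.586 to 0.982% in MSC and 0.709 to 0.842% in OB libraries. Under quantile normalization 9 passed in each direction, with a median of -0.10, and the count of higher genes was 3 without the replicate block, 3 without mouse E or mouse H and 2 without mouse G. The lower ones included the collagen handlers Serpinh1 (-2.27), Sec24d (-1.94), Mia3 (-1.20) and Creb3l1 (-2.58). The chaperones Calr (0.67), Canx (0.48) and Sdf2l1 (1.10) and the translocon subunit Sec61b (1.02) were higher, though Calr did not pass without mouse E, G or H, nor Canx without G (limma adjusted p 0.0782). Of 18 genes of oxidative phosphorylation 10 passed higher and 0 lower, with Ndufa4 at 1.48, Uqcrfs1 at 1.07, Cox5a at 0.89 and Atp5b at 0.75. Of 21 glycolysis and hypoxia genes 10 passed higher and 7 lower. Hk1 (1.38), Pfkl (1.30), Gapdh (0.85) and Pgk1 (1.03) were higher, and Hk2 (-1.27), the lactate exporter Slc16a3 (-1.91), Bnip3 (-1.60) and Ndrg1 (-1.13) were lower. Heme synthesis genes Alad and Urod were higher by 2.12 and 0.99. In cholesterol synthesis Fdft1 and Hmgcs1 were lower, at -1.41 and -0.82. Hmgcs1 did not pass without mouse F, G or H. The lower genes of the cholesterol and heme list numbered 3, and 1 without mouse F, without mouse H or without the replicate block.

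Genes tied by earlier work to miR-9 or named in the study's setting were few. Of 14 listed 10 were tested, 1 passed higher and 7 lower. Rest, a repressor of neuronal genes, had 831, 735, 694 and 511 against 1229, 1522, 1578 and 1643, a difference of 1.12 (SE 0.18, limma adjusted p 8.16e-04). Foxo1, Sirt1 and Hes1 were lower, at -0.98, -0.97 and -0.89. Penk, the precursor of enkephalins, had 4107, 2424, 6772 and 5722 against 3007, 1141, 2113 and 928, a difference of -1.46 (SE 0.30, limma adjusted p 0.00318), and Fmo1, a flavin monooxygenase, 1878, 745, 1405 and 2199 against 499, 386, 469 and 283, a difference of -1.85 (SE 0.28, limma adjusted p 6.39e-04).

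The size of the difference varied between mice for some stromal lists and less for the blood stem and progenitor list. For the stromal progenitor list the median difference within mice was -0.93, -1.41, -2.53 and -3.03, and for the stromal chemokines -0.93, -1.67, -2.73 and -3.49. For collagens it was -1.98, -2.999, -3.45 and -3.71. Each of these 3 was smallest in mouse E and largest in mouse H. For blood stem and progenitor genes the medians were 2.06, 2.25, 2.04 and 2.14, within a narrow band. Not every list followed this division. Erythroid medians fell from 2.76 in mouse E to 1.12 in mouse H, and megakaryocyte medians ran from -0.15 to 2.91. The tendon and fibroblast medians were -2.55, -2.82, -2.997 and -3.37, and those of osteoblast factors -1.28, -1.49, -1.87 and -2.25. Both spanned less than the collagen medians, though they too were smallest in mouse E and largest in mouse H. The collagen list's share of reads in OB libraries ranged from 0.212 to 0.720%, and that of the blood stem and progenitor list from 0.290 to 0.372%.

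**Figure D4:**
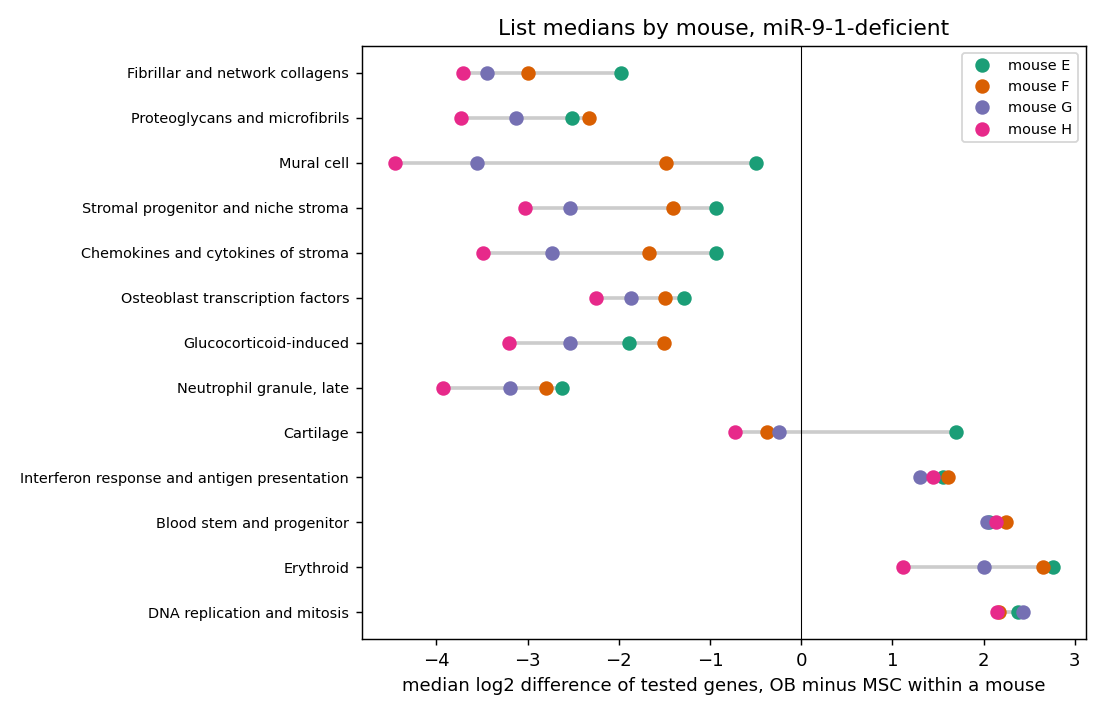
Each point is the median, over a list's tested genes, of the log2 difference between the OB and the MSC library of 1 deficient mouse, and the grey bar spans the 4 mice. The mural, stromal progenitor and stromal chemokine lists spread over 2 or more log2 units between mice E and H. Replication and blood progenitor lists stay near 2 in all 4, and the erythroid list falls from 2.76 in E to 1.12 in H.

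The last comparison asked whether the contrast between the sorts depended on the genotype. In wild-type mice 10216 of 14696 tested genes passed for OB against MSC, or 69.5%. Over 14351 genes tested in both genotypes the differences correlated across genes with Pearson's r = 0.924, a description, since genes are not independent replicates. Of 7927 genes that passed in both genotypes, 7915 had the same sign. The difference between the contrasts, deficient minus wild-type, was fitted over all 16 libraries with the mouse as a block. The mean log2 level of 6 sex-linked genes was 5.58 to 8.16 in wild-type MSC libraries and 8.78 to 8.998 in wild-type OB libraries. Whether each wild-type OB library holds RNA of 1 mouse was not tested, so the caution on pairing and p-values applies here too. Of 15556 genes 3 passed, or 0.0193%, and 2209 had an unadjusted p under 0.05, or 14.2%.

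Dio2, the enzyme that activates thyroid hormone, was lower in OB in both genotypes and less so without miR-9-1. Its deficient values were 1106, 1931, 536 and 529 in MSC and 353, 495, 249 and 176 in OB libraries, and the wild-type values 4768, 5608, 4207 and 3867 in MSC and 549, 653, 411 and 309 in OB. The contrast was -1.57 in deficient and -3.30 in wild-type mice, a difference of 1.73 (SE 0.20, limma adjusted p 0.0225). The wild-type MSC libraries lay above every deficient MSC library. C1qtnf6, a secreted relative of complement C1q, had contrasts of -0.46 and -1.52, a difference of 1.05 (SE 0.14, limma adjusted p 0.0486). Fkbp5, a cochaperone of the glucocorticoid receptor that glucocorticoids induce, ran in opposite directions. It had 8135, 1616, 1914 and 3935 in deficient MSC and 2468, 1191, 1294 and 1276 in deficient OB libraries, against 608, 456, 382 and 374 and 972, 961, 942 and 967 in wild-type mice A to D. The contrast was -1.09 without miR-9-1 and 1.10 with it, a difference of -2.19 (SE 0.29, limma adjusted p 0.0475). None of the 3 passed when any 1 of mice A, B, C, D, E, G or H was left out, and without mouse F the count rose to 148. DESeq2 on recovered reads called 176 genes and edgeR 1.

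The next genes in order of p did not pass. Psmb9, Cilp2 and Thy1 had positive differences of 1.51, 0.94 and 1.82, with limma adjusted p 0.104, 0.107 and 0.107. Tsc1, Jade1, Map3k6 and Thsd1 had negative ones of -0.99, -0.86, -1.31 and -1.82, with limma adjusted p from 0.0888 to 0.107. For the genes of the niche the contrasts of the genotypes stood side by side as follows. Cxcl12 was at -0.95 in deficient and -2.52 in wild-type mice, with limma adjusted p 0.32 for the difference. Kitl was at -1.30 and -2.66 (limma adjusted p of the difference 0.413), Lepr at -2.14 and -3.57 (0.339) and Il7 at -0.093 and -1.40 (0.419). Fmo1 was at -1.85 and -3.90 (0.149), Penk at -1.46 and -2.90 (0.203) and Phospho1 at -1.27 and -0.13 (0.156). None of these differences passed, and a p that misses the threshold does not show that the contrasts were alike.

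Among lists, the share of members with an unadjusted p under 0.05 for the difference was read against 14.2% of all genes. It was 32 of 37 for cytosolic ribosomal proteins, whose median contrast was 0.89 in deficient and 1.31 in wild-type mice, with 0 of 37 past the adjusted threshold. It was 10 of 25 for the stromal progenitor list, with medians of -1.85 and -2.74, and 10 of 16 for the B-lineage list. The B-lineage medians were 0.42 over 13 genes tested in deficient mice and -0.94 over 16 tested in wild-type mice. These 2 medians cover different sets of genes and are not a like comparison. The share was 0 of 19 for the erythroid list (2.14 and 2.12) and 2 of 14 for collagens (-3.003 and -3.20). Genes of a list vary together, so these counts describe the libraries and are not tests.

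**Figure D5:**
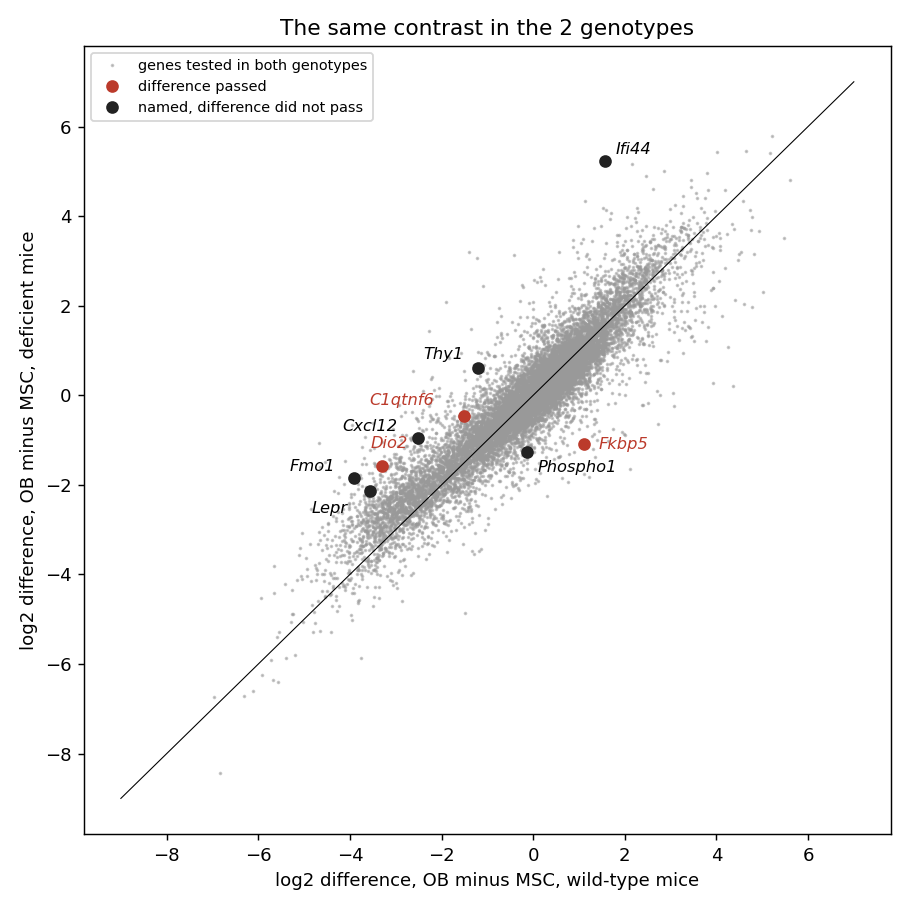
Each grey point is 1 gene, placed by its OB minus MSC log2 difference in wild-type mice (horizontal) and deficient mice (vertical), with the line of equal values. Red points are the 3 genes whose difference between genotypes passed (Dio2, C1qtnf6 and Fkbp5) and black points are other named genes, whose difference did not pass.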

How the data were processed

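Poly(A) RNA of sorted MSC and OB samples was sequenced in 16 libraries, from 4 mice lacking miR-9-1 and 4 wild-type mice, per the labels' protocols. The signal values the authors deposited are counts per symbol scaled between libraries. DESeq2 1.24.0 and mm10 appear in the submitters' processing notes; aligner, counter and annotation: not given in the sources used here. In each library 100% of values were whole multiples of 1 step within 0.01, so reads were recovered. Of 20056 symbols, those reaching a normalized count of 10 in 4 or more fitted libraries were tested.

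log2(normalized count + 1) was fitted with limma 3.58.1 (empirical Bayes with trend, mouse as a fixed block) in R 4.3.3, and the threshold was a Benjamini-Hochberg adjusted p of 0.05 over all genes tested. The difference between genotypes was an interaction term over all 16 libraries. Members and lists were chosen with earlier results of these data known. Named were the 15 largest passing changes per direction without overlap and with a mean of 50 or more, up to 4 passing members per list and direction by adjusted p, or up to 2 of smallest p where none passed, a set of bone, niche and sex-linked genes, and for the difference between genotypes the passing genes, filled up by p to 5 per direction. Genes named only as not passing or beside a motif lie outside that rule, and a few genes it picked are not reported here. Gene lists also hold genes the study named.

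The alternatives were another pseudocount (5), no filter or one of 50, quantile normalization, edgeR 4.0.16 and DESeq2 1.42.0 on the recovered reads, array weights, no replicate block, all 16 libraries in 1 fit, a change of at least 1 on the log2 scale, and each mouse left out. Fits to mice E and F and to G and H were added after seeing the data. Code was tested on simulated data. Floors of 3 reads (95% confidence) cover counting error only. The pairing comes from animal numbers in the labels. Sequences are RefSeq's on GRCm38.p6.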

Additional observations from a re-analysis of the deposited data

Results flagged for a closer look

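Among the 208 named genes, 416 groups of 4 libraries were examined, and in 26 of them 1 library stood apart from the other 3 by Dixon's ratio at its 95% value; chance gives about 5% of groups. Values are normalized counts.

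OB library E was high for the mural gene Rgs5 (459.9, others 59.9 to 84.8), the fat cell genes Plin4 (182, others 9.12 to 24.8) and Fabp4 (261, others 41.7 to 59.2), Scn7a (199, others 8.27 to 16.3), Mt1 (3817, others 1001 to 1383), Fkbp5 (2468, others 1191 to 1294) and Il33 (5.88, others 2.61 to 3.01). It was low for Canx (5375, others 6174 to 6252) and Apol11b (169.7, others 208 to 213). OB library F was high for the stromal genes Prrx2 (169.99, others 12.8 to 38.7), Cd248 (81.4, others 13.9 to 21.3), Col15a1 (393, others 58.0 to 109.7) and Runx2 (2060.1, others 1356 to 1401), and for Il7 (69.7, others 18.3 to 21.3) and Cxcl13 (3.26, others 0).

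MSC library F was low for Inmt (398, others 2148 to 2411) and high for Bglap (46.4, others 5.84 to 10.6), Ms4a1 (43.8, others 17.5 to 20.9) and Ly6a (955, others 422 to 467). MSC library G was high for the megakaryocyte gene Itga2b (1507, others 317 to 443). MSC library E was high for Mt2 (28461, others 12922 to 14843), Sgk1 (27231, others 15541 to 16781) and Gfap (17.6, others 2.58 to 2.92). MSC library H was high for Matn1 (17.5, others 0) and Tubb3 (64.3, others 36.6 to 41.2) and low for Gp1bb (342, others 459 to 468).

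The OB-MSC contrast differed between genotypes for 3 genes, by 1.73 for Dio2, 1.05 for C1qtnf6 and -2.19 for Fkbp5, deficient minus wild-type on the log2 scale (limma adjusted p 0.0225, 0.0486 and 0.0475).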

How the results depend on the processing

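All 192 named genes that passed kept their direction under the 15 alternatives that could be fitted, and 20 of them lost the call under 1 or more, 15 of these when a mouse was left out. Calr, Flt1, Gfap, Hmgcs1, Hp, Il2rb and Ms4a1 lost it under 5 to 7 of them. The count for OB against MSC was 8978, 8761 without the replicate block, 5581 with an absolute log2 difference of 1 or more, 5877 on mice E and F only, 8175 on G and H only, and 6837 (without G) to 8284 (without E) with a mouse left out. Quantile normalization moved the median of all genes up by 0.136 and raised the share of higher calls from 48.0 to 54.6%. For the difference between genotypes the count of 3 became 2 without the replicate block, with 0 of the 3 genes among them (same-numbered libraries deviated together at r = 0.0587 to 0.320, and 3 of 4 numbers matched best both ways), 1 without a filter, 1 with edgeR, 15 with array weights and 176 with DESeq2, and ranged from 0 (without any of A, B, C, D, E, G and H) to 148 (without F) with a mouse left out. At 0 calls by limma, 1618 to 2320 genes had an unadjusted p under 0.05.

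Signs turned for genes that had not passed. On mice E and F only these were Ddx3y (-0.72), Cxcl12 (0.30), Il7 (0.34), Kitl (0.066) and Cytl1 (0.52), and on G and H only Xist (-0.77). Under quantile normalization they were Il7 (0.42) and Cytl1 (0.26). With a mouse left out Bglap ranged from -0.10 to 1.75, Il7 from -0.57 to 0.32 and Cytl1 from -0.92 to 0.11. List medians near 0 turned too: cartilage (-0.49 to 0.27 with a mouse left out, -0.62 on G and H only), glycolysis (-0.0055 to 0.59, -0.036 on E and F only) and T and natural killer (-0.25 to 1.12). The cause was not tested. Depth limits low genes: 3 reads equal up to 4.38 normalized counts in MSC and 2.25 in OB libraries.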
